A study of Mus musculus with 3 samples.

Results

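High glucose and normal glucose were compared in cells labelled mouse cavernous endothelial cells, through the bright genes of 1 array each. The cells are primary cells of the penile erectile tissue of C57BL/6 mice. A probe counted as bright where at least 50% of its spots were well above background and its mean signal was above 500 on both arrays, which left 14307 of 39429 probes, or 36.3%. Of these, 11474 could be named, for 9438 of the 19733 named genes of the array, and the brightest of a gene's probes stands for it. The probe just inside the limit had a signal of 500.2 on its dimmer array and the probe just outside had 499.7.

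Both cultures were kept in medium M199 with serum (20% FBS), heparin, antibiotics and vascular endothelial growth factor A at 5 ng/ml, and their RNA was pooled over 3 numbered samples per array. The labels give the normal-glucose array as 5 mmol glucose and the high-glucose array as 30 mmol glucose, each for 48 hours. The remaining array, labelled high glucose with Ninj1 siRNA at 200 pmol, was not part of the comparison. Whether the other cells were given a control siRNA is not stated in the labels, which also name no osmotic control sugar for the normal-glucose cells. The group word in the file name of the array labelled high glucose is that of the siRNA, and the siRNA-labelled array carries the word for high glucose. Slide positions differ too, since the normal-glucose array has position 2 in its file and 1 in its file name, and the siRNA-labelled array has 1 and 2. The array labelled high glucose has position 3 in both. The positions thus differ for another pair of arrays than the group words do, and the normal-glucose array is part of that pair. Ninj1, the gene the siRNA targets, went against the labels on its single probe, where the normal-glucose array gave 20413, the high-glucose array 16764 and the siRNA array 22449 as scaled signals, each named by its label. It was thus lowest on the array whose file name carries the siRNA word (-0.28 against normal glucose) and highest on the array labelled siRNA (0.14), each read from 1 spot. Which array is which cannot be settled from these files. Each direction given here therefore belongs to the array so labelled. With 1 array of pooled RNA per group there is no replicate of a culture, no test was possible, and "higher" and "lower" describe these arrays only.

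Glucose that enters a cell is phosphorylated and mostly passes through glycolysis, and at high supply part of it is diverted to the polyol pathway, in which aldose reductase makes sorbitol, and to the hexosamine pathway. A concentrated medium also draws water out of cells, which respond by taking up or making small osmolytes such as myo-inositol, taurine and sorbitol under the transcription factor NFAT5. In vascular cells high glucose is known for oxidant stress, inflammatory activation and matrix deposition, and glucose itself induces Txnip through the ChREBP and MondoA factors. Some of the gene lists described below follow these routes. Others cover further pathways and cell types, and all lists were chosen with earlier results of these data known.

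The endothelial name comes from the labels, and the marker genes did not bear it out, since most endothelial markers were dim and most fibroblast markers bright. Of 28 endothelial markers 6 were bright, among them Kdr, the main receptor of vascular endothelial growth factor (signal 7440 on the normal-glucose array and 7510 on the high-glucose array). Pecam1 (61.9 and 78.7), Vwf (63.3 and 68.1) and Tek (41.2 and 39.2), genes that define the endothelium, were above background but dim. In all 22 of the 28 were well above background on both arrays, and Tie1, Emcn, Erg, Sox17, Sox18 and Lyve1 were not on either. Of 18 fibroblast markers 17 were bright, and of 17 macrophage markers 8. The summed signal of the fibroblast list was 1375280 and 1374110, that of the endothelial list 317274 and 310746, and that of the macrophage list 43871 and 42397. Most of the endothelial sum came from Ly6c1 (218706 and 216197) and Cd34 (82620 and 78275), and the largest share of the macrophage sum from Itgam (23040 and 22197). The median signals of the lists moved otherwise, from 85.3 to 95.9 for the endothelial list, from 603 to 627 for the macrophage list and from 23928 to 23753 for the fibroblast list. All high-glucose signals in this text are scaled by 1.03 so that the 75th percentiles of both arrays are equal. In pooled RNA, fewer cells of a type and less RNA per cell cannot be told apart.

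The bright genes were nearly alike on both arrays. The log2 difference, high-glucose label minus normal-glucose label, had an SD of 0.082 over 9438 genes and a median of -0.018, and 90% of genes lay between -0.13 and 0.12, or within 1.09-fold either way. No gene was 2-fold apart and 2 were at least 1.5-fold apart. As a step for naming genes 0.25 on the log2 scale was used, which is 1.19-fold. On this step 80 genes were higher under the high-glucose label (0.848% of the bright genes) and 21 lower (0.223%). With the genes divided by brightness into 5 bands of nearly equal size, the SD of differences was 0.094 in the dimmest band and 0.072 in band 4, where the median was -0.030 against -0.00010 in the dimmest. Of the 80 higher genes 69 were read by probes whose names start with A_55, a name that covers 48.5% of the bright genes.

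**Figure D1:**
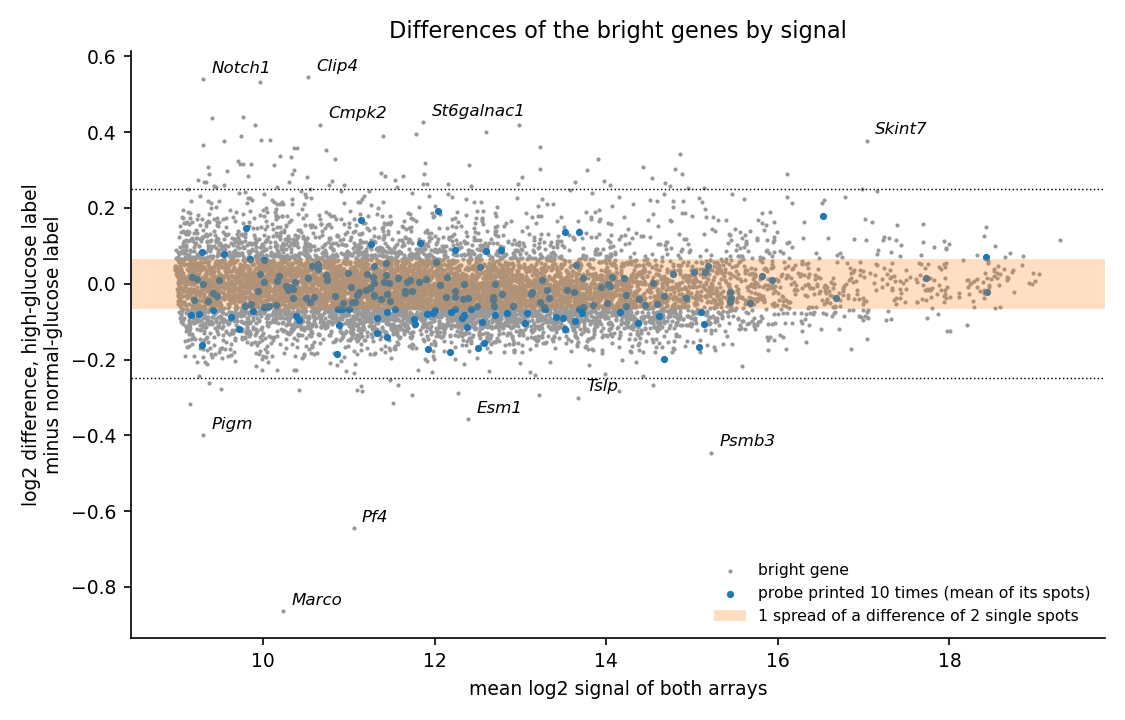
Log2 difference (high-glucose label minus normal-glucose label) against the mean log2 signal of both arrays, for 9438 bright genes (grey) and for probes printed 10 times (blue). The orange band spans 0.066 on either side of 0, the spread of a difference of 2 single spots, and the dotted lines mark 0.25 and -0.25; most genes lie within the dotted lines at every signal.

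Probes printed 10 times gave the technical yardstick. The array carries 399 such probes, of which 190 were bright. The log2 signals of the spots of such a probe scattered within an array by 0.047 (median SD). A difference of 2 single spots then has a spread of 0.066, and the median standard error of a difference of 10-spot means was 0.021. These errors cover spot noise alone, not the culture, the RNA or the hybridisation. The differences of the 190 probes had an SD of 0.066, or 3.08 times their spot error, and 67 of them (35.3%) were over 3 times their own spot error, 14 higher and 53 lower. Their median difference was -0.032, larger in size than the median standard error. The excess of lower probes, here and among the separated probes below, is to be read against this common offset. No 10-spot probe reached the step of 0.25 in size.

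Spots of 4 of these probes lay wholly above on the high-glucose array (2.11% of the 190) and spots of 8 lay wholly below (4.21%). Acta2, smooth muscle actin, had spot signals of 26126 to 30196 on the normal-glucose array and 23349 to 26038 on the high-glucose array, a difference of -0.20 with a spot error of 0.024. Slc5a3, the sodium-coupled carrier of the osmolyte myo-inositol, had 1871 to 2120 and 1704 to 1853, a difference of -0.19 with a spot error of 0.022. Enc1, an actin-binding kelch protein gene, had 4889 to 5170 and 4217 to 4632, a difference of -0.18 with a spot error of 0.015. All these were 1.13-fold to 1.15-fold lower under the high-glucose label, without a spot in common.

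On the higher side, H2-K1, a classical MHC class I heavy chain, had spot signals of 87895 to 93533 on the normal-glucose array and 98722 to 106462 on the high-glucose array, a difference of 0.18 with a spot error of 0.014. Its signal may include that of other MHC class I genes, which are close in sequence. Traf4, an adaptor of the tumour necrosis factor receptor family, had 3641 to 4140 and 4421 to 4696, a difference of 0.19 with a spot error of 0.019. Apoe, the lipoprotein component apolipoprotein E, had 10720 to 11964 and 11965 to 13215, a difference of 0.14 with a spot error of 0.021. The spots of Apoe nearly met, while those of H2-K1 and Traf4 left a gap. The other separated probes were a probe without a gene name at 0.14, Ccdc93 of an endosomal sorting complex at -0.16, the ribosome assembly gene Wdr3 at -0.13, Wdr6 at -0.12, the cytokine signalling suppressor Socs2 at -0.11 (its other bright probes reached up to -0.028), and Uqcrc2 of respiratory complex III at -0.059.

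**Figure D2:**
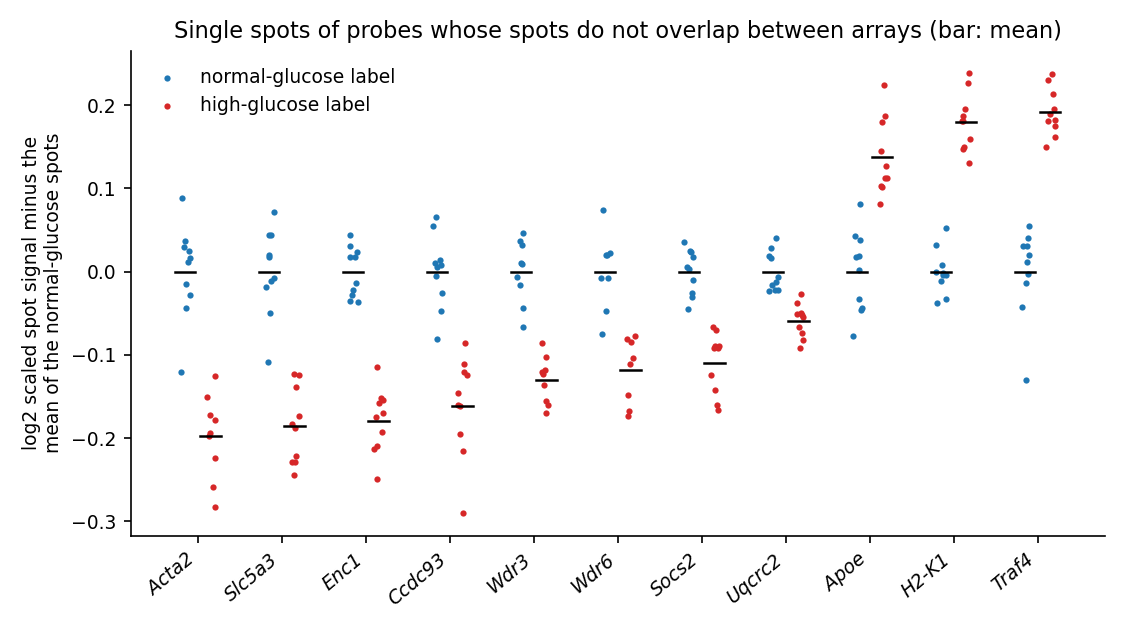
Log2 scaled signal of each spot, relative to the mean of the normal-glucose spots, for the 11 named probes whose 10 printed spots do not overlap between the normal-glucose array (blue) and the high-glucose array (red). Bars are means over spots that are not outliers, and the means of the red spots run from -0.20 for Acta2 to 0.19 for Traf4.

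A second reading came from genes with several probes, which are separate sequences on the same RNA. Over 1757 genes with at least 2 bright probes, the differences on the brightest and the next brightest probe correlated at r = 0.26 (Spearman 0.25). This describes genes of a single pair of arrays, and probes of a gene share RNA and array. Both probes differed in the same direction for 1055 genes, or 60.0%. Most bright genes (60.2%) and most next probes (58.2%) lay below 0, so much of this agreement would also arise between unrelated probes. Where the brightest probe was at least 0.15 higher (54 genes), the next probe was higher for 34 with a median of 0.022, against 41.8% of all next probes. Where the brightest probe was at least 0.15 lower (47 genes), the next probe was lower for 34 with a median of -0.057, against 58.2% of all next probes. The medians of the brightest probes themselves were 0.18 and -0.17 in these groups. Clip4, chosen after its values were seen, had the highest difference of all bright genes at 0.54, and its other bright probe read 0.0012.

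Every bright probe was at least 0.15 higher under the high-glucose label for 9 genes (0.512% of the 1757) and at least 0.15 lower for 9 genes (0.512%). Cmpk2, a mitochondrial nucleotide kinase that interferon induces, stood furthest out. Its brighter probe read 1419 on the normal-glucose array and 1899 on the high-glucose array (0.42), and its other probe 549.6 and 835 (0.60). Ifit3b, an interferon-induced antiviral gene close in sequence to Ifit3, read 13183 and 15042 on its brighter probe (0.19) and 1874 and 2505 on the other (0.42). Igf1, insulin-like growth factor 1, was higher on all 3 of its bright probes, with 1547 and 1741 on the brightest (0.17) and 0.29 and 0.21 on the others. Tgfb2, a TGF-beta ligand, was higher by 0.18 on either probe, from 1102 to 1244 and from 589 to 666. The interferon-responsive torsin gene Tor3a averaged 0.20 over its probes, the Ral exchange factor Ralgds 0.20, the complement protease gene C1s2 0.19, Tmem121 0.19 and the factor H-related gene Cfhr2 0.17. Each of them was between 1.12-fold and 1.17-fold higher on each probe.

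On the lower side Mink1, a kinase gene of the MAP4K family, read 4417 on the normal-glucose array and 3759 on the high-glucose array with its brighter probe (-0.23) and 4169 and 3641 with the other (-0.20). Anxa8, which encodes an annexin, read 37218 and 33171 over 10 spots (-0.17, spot error 0.021) and 7716 and 6832 on its other probe (-0.18). The ubiquitin ligase gene Trim16 averaged -0.19, the gamma-secretase subunit gene Psenen -0.18, the vesicle tethering gene Vps18 -0.18, the centriole gene Poc1a -0.17, the katanin-like gene Katnal1 -0.17, the granzyme gene Gzme -0.17 and the sorting nexin gene Snx11 -0.16. These sizes are close to the limit of 0.15 that chose the genes, except for Mink1.

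**Figure D3:**
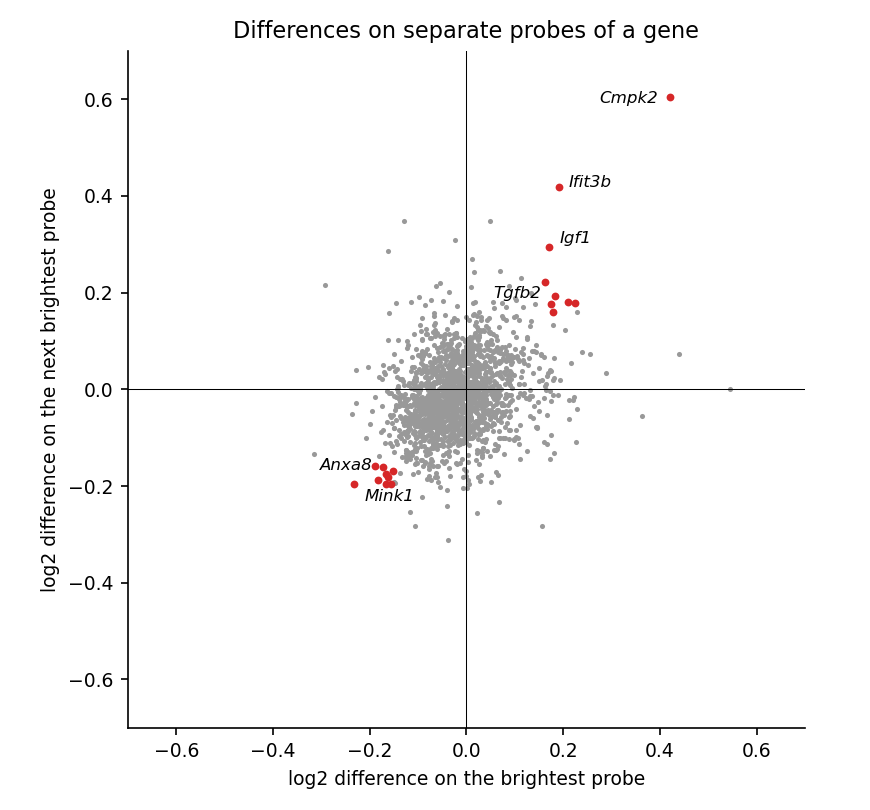
Log2 difference (high-glucose label minus normal-glucose label) on the brightest probe against that on the next brightest probe, for 1757 genes with at least 2 bright probes. Red points are the 18 genes whose bright probes are all at least 0.15 apart in the same direction; Cmpk2 (0.42 and 0.60) lies apart from the cloud.

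The largest differences among genes with a single bright probe rested on 1 spot per array. Marco, a scavenger receptor of macrophages, read 1646 on the normal-glucose array and 904 on the high-glucose array (-0.86, 1.82-fold lower), and Pf4, the chemokine platelet factor 4, read 2701 and 1727 (-0.65, 1.56-fold lower). These are the 2 genes past 1.5-fold. Of the 17 macrophage markers 6 bright ones were lower (75%, against 60.2% of all bright genes) and 2 higher, around a median of -0.040. Csf1r, the growth factor receptor of macrophages, read 2744 and 2749, and Ptprc was dim at 40.03 and 44.8. The part of macrophages in the values of Marco and Pf4 was not tested. Psmb3, a proteasome subunit gene, read 45275 and 33248 (-0.45), whereas the other 30 bright proteasome genes lay between -0.12 and 0.029. Below them came the glycolipid anchor gene Pigm (-0.40), Esm1, a marker of endothelial tip cells (-0.36), the DNA repair gene Nthl1 (-0.32), the cytokine gene Tslp (-0.30), Dnajc4 (-0.29), stanniocalcin gene Stc2 (-0.29), Ninj1 (-0.28), Cd24a (-0.28) and Derl3 of endoplasmic reticulum quality control (-0.28).

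On the higher side the receptor gene Notch1 read 531 and 772 (0.54) and the muscle gene Cmya5 read 842 and 1218 (0.53). They were followed by the nuclear receptor gene Nr1i3 (0.44), the sialyltransferase gene St6galnac1 (0.43), Pnma2 (0.42), the exchange factor gene Arhgef15 (0.40), the cation channel gene Trpm1 (0.39), the T-box gene Tbx22 (0.39), Wdr45b (0.38), Skint7 (0.38), carbonic anhydrase 9, Car9, a hypoxia target (0.38), and Zfp72 (0.37). For 4 of these 12 genes another probe was above background but dimmer, and it read 0.12 for Cmya5, 0.12 for St6galnac1, 0.0060 for Pnma2 and -0.078 for Wdr45b. None of these other probes passed 0.25. On the normal-glucose array they gave 150, 43.3, 249 and 285 in that order, against 842, 3267, 7128 and 967 on the bright probes. Notch1, Nr1i3, Trpm1, Tbx22 and Skint7 had further probes too, none of them well above background on both arrays. The same held for Pigm on the lower side. For these genes the bright level thus rests on 1 probe that no other probe matched.

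Shared shifts of gene groups were smaller than these single values but involved many genes each. Of all bright genes 39.8% had a difference above 0 and 60.2% a difference below 0, around the median of -0.018. Each list below is to be read against that. The share above 0 varied with brightness, at 49.9%, 43.5%, 37.7%, 31.5% and 36.4% from the dimmest band to the brightest. For lists of bright members the share below 0 to compare with is thus larger than 60.2%. Over 48 lists the medians of those with at least 6 bright members lay within 0.11 of 0. The differences of most single members are of the size of spot noise, 0.066.

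MHC class I antigen presentation had the highest median, 0.082. This system loads peptides from the proteasome on class I molecules and shows them at the cell surface. Of 18 genes 15 were bright, 13 of them higher (86.7%) and 2 lower, none past 0.25. Besides H2-K1, whose other bright probe read 0.13, the light chain gene B2m read 202615 on the normal-glucose array and 226204 on the high-glucose array (0.16). The immunoproteasome genes Psmb8 and Psmb9 read 6901 and 7671 (0.15) and 3248 and 3524 (0.12). Of the class I genes H2-Q6, H2-Q7, H2-Q4 and H2-D1 read 0.12, 0.11, 0.11 and 0.066, but their probes may share signal. The transactivator gene Nlrc5 was at 0.082, while the peptide transporter gene Tap2 was at -0.071 and Psmb10 at -0.018.

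Interferon-stimulated genes, the antiviral programme that interferon switches on, had a median of 0.063 with 23 of 29 bright genes higher (79.3%) and 6 lower. Besides Cmpk2, Rsad2, encoding the antiviral enzyme viperin, read 1645 and 1985 (0.27). No other protein-coding gene lies between Rsad2 and Cmpk2 in the RefSeq table. Oas2, a sensor of double-stranded RNA, read 4959 and 5793 (0.22), its relative Oasl1 4646 and 5295 (0.19), and the ISG15 protease gene Usp18 14839 and 16703 (0.17). Isg15 itself read 69250 and 71239 (0.041) and Ifi44 stood at -0.089. Next brightest probes of 7 of these genes had a median of 0.10, with 5 higher and 2 lower. The members thus spread from -0.089 to 0.42, with the largest values among a few genes.

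The promoters of 2 members are shown because their letters match the element that interferon-activated factors are known to bind. Both are RefSeq windows of GRCm38.p6, from 250 bases before to 50 after the gene start, with the match in capitals; the element was searched on both strands as GAAA, any 2 bases, GAAA.
Rsad2, chr12:26456403-26456702, minus strand: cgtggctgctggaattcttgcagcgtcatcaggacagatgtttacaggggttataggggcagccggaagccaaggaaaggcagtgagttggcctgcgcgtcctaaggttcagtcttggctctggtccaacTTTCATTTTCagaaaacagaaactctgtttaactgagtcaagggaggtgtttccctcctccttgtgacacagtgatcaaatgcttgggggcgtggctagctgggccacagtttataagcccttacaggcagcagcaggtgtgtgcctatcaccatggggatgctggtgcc
B2m, chr2:122147437-122147736, plus strand: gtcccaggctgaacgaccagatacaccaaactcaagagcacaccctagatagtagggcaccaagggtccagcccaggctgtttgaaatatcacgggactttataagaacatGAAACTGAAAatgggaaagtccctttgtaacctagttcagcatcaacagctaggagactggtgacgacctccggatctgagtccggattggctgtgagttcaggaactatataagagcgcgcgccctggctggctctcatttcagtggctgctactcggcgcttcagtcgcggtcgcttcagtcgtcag
The match starts at -120 in Rsad2 and at -139 in B2m, counted from the gene start. Of 23 bright interferon-stimulated genes with a window 11 held such a match (47.8%), as did 3 of 13 MHC class I genes (23.1%), against 3.72% of 7606 bright genes with a window and 3.99% of all 27025 genes with a window. Within the interferon list the 11 genes with a match had a median of 0.066 and the other 12 had 0.041, while in the MHC class I list the 3 with a match had 0.041 and the other 10 had 0.11. The interferon list gathers genes known to respond to interferon, so its high share of matches follows from its choice. A match of letters is a description and shows no binding.

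**Figure D4:**
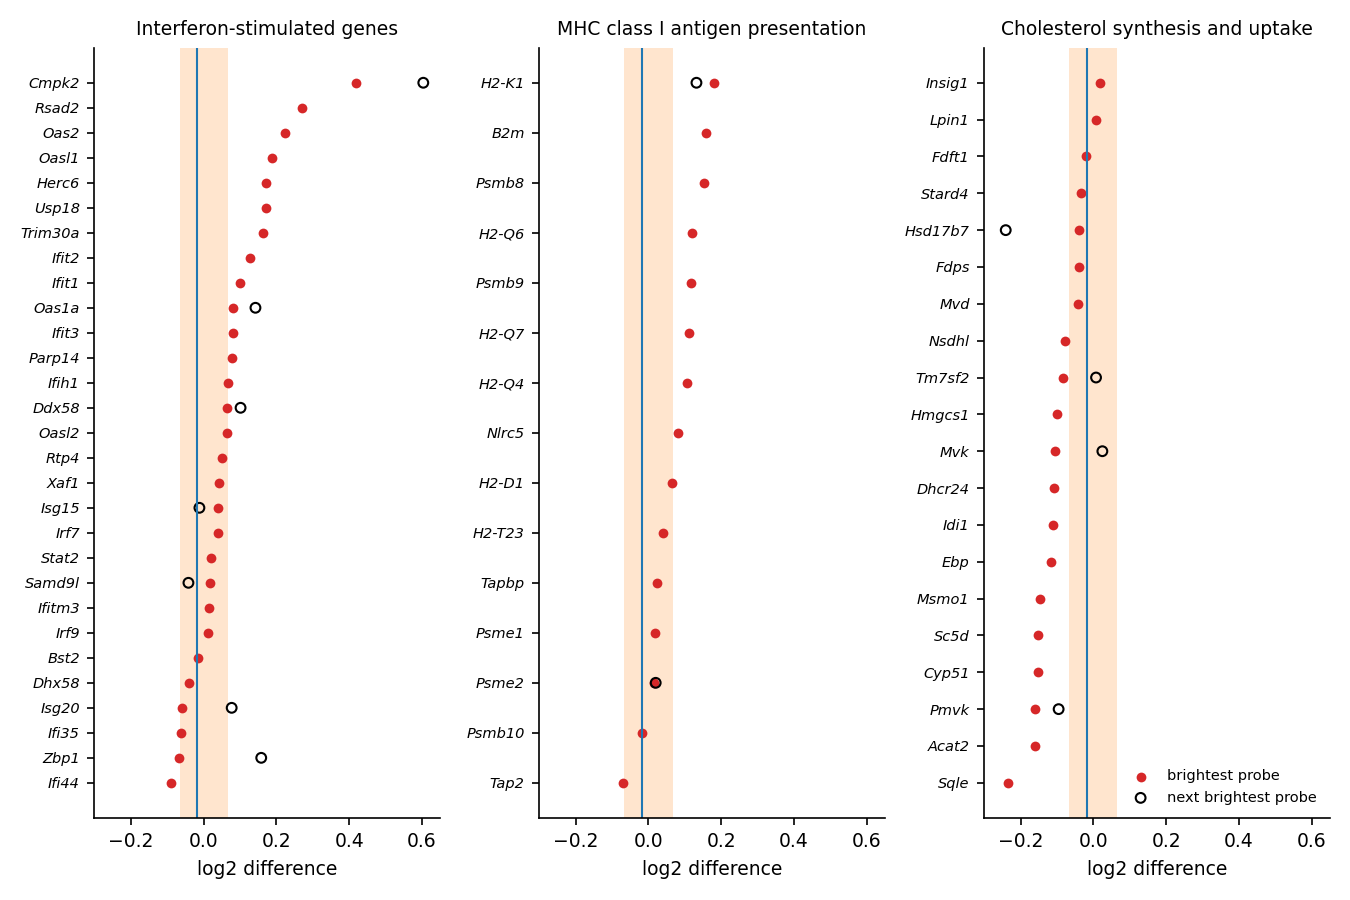
Log2 difference (high-glucose label minus normal-glucose label) of the bright members of 3 lists that are reported here, on its brightest probe (red) and, where there is one, its next brightest bright probe (open circle). The orange band spans 0.066 on either side of 0 and the blue line marks the median of all bright genes at -0.018; MHC class I and interferon genes lie mostly to its right and cholesterol genes to its left.

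Cholesterol synthesis and uptake had the lowest median of the lists with at least 6 bright genes, -0.11, with 19 of 21 bright genes lower (90.5%) and 2 higher, none past 0.25. These enzymes turn acetyl-CoA into cholesterol and are switched on together by SREBP2 when sterols run low. Sqle, squalene epoxidase, read 9760 on the normal-glucose array and 8299 on the high-glucose array (-0.23). The kinase gene Pmvk read 6364 and 5697 (-0.16) and -0.095 on its next probe, the thiolase gene Acat2 737 and 659 (-0.16), and Cyp51, the lanosterol demethylase, 583 and 525 (-0.15). Hmgcs1, which makes HMG-CoA early in the pathway, read -0.10, while Insig1, a feedback inhibitor of SREBP processing and itself its target, stood at 0.017. Next brightest probes existed for 4 members and had a median of -0.044, with 2 higher and 2 lower. In the related fatty acid list 8 of 10 bright genes were lower (80%) around a median of -0.039, with the citrate lyase gene Acly at -0.15 and the desaturase gene Scd1 at -0.12.

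Of 15 bright cholesterol genes with a promoter window 1 held a match to TCACNCCAC, a form of the sterol regulatory element, on either strand (6.67%), against 1.43% of the bright genes and 1.44% of all genes with a window. It read -0.10, and the other 14 had a median of -0.11. The window is shown with the match in capitals because it is the single match in the list.
Hmgcs1, chr13:119690101-119690400, plus strand: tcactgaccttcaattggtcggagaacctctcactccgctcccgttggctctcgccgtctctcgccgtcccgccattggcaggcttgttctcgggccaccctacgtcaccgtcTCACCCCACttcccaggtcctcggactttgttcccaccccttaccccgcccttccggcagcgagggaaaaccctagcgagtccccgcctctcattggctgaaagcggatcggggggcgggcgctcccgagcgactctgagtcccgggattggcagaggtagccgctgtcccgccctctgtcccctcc
The match in Hmgcs1 starts at -137. As the list gathers genes that SREBP2 switches on, its share of matches is no independent reading.

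Contractile genes lay on both sides of 0. Of 9 bright smooth muscle and pericyte markers 6 were lower (66.7%, near the 60.2% of all bright genes) and 3 higher around a median of -0.095, and of 18 bright YAP and SRF targets 15 were lower (83.3%) around -0.075. The lists share Cnn1 and Myl9. Myl9, the regulatory myosin light chain of smooth muscle, read 26716 on the normal-glucose array and 22181 on the high-glucose array (-0.27). The calponin gene Cnn2 read 17921 and 15199 (-0.24) but -0.050 on its next probe, and Cnn1, the smooth muscle calponin, 1635 and 1440 (-0.18). Ccn2, a matricellular YAP and TGF-beta target, read 15610 and 13465 (-0.21), and Ankrd1 1959 and 1727 (-0.18). Tagln, transgelin, read -0.054 and Pdgfrb, the pericyte growth factor receptor, 0.024, and the largest value of the list in size was a higher one, since Mcam, an adhesion molecule of pericytes and endothelium, read 27660 and 33792 (0.29). Acta2 with its 10 spots was among the 6 lower markers, and Myh11, which defines mature smooth muscle, was not well above background on either array. The part of cell composition in these values was not tested.

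Of 16 bright YAP and SRF targets with a promoter window 5 held a CArG box, the element that SRF binds (31.2%), against 1.60% of the bright genes and 1.81% of all genes with a window, on either strand. The list gathers genes known as SRF targets, so its high share of the box follows from its choice. The 5, Vcl, Myl9, Cnn2, Srf and Fhl2, had a median of -0.13 and the other 11 had -0.055. Srf itself read 0.0099 on its brightest probe and -0.056 on the next. Of 7 bright smooth muscle and pericyte markers with a window 1, again Myl9, held the box (14.3%). The part of SRF in these values was not tested. The window of Myl9, the member furthest from 0, is printed with its CArG box in capitals.
Myl9, chr2:156775214-156775513, plus strand: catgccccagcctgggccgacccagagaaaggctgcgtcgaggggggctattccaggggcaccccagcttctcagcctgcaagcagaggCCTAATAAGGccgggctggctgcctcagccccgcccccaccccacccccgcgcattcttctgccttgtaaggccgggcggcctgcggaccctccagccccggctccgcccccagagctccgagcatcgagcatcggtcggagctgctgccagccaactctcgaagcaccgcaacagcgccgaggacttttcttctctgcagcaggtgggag
The box in Myl9 starts at -161.

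TGF-beta ligands, receptors and targets were divided. Of 22 bright genes 15 were lower and 7 higher around a median of -0.054. The 2 members with a next probe, Tgfb2 and Pmepa1, were higher on both probes (medians 0.12 on the brightest and 0.13 on the next). Targets such as the activin subunit gene Inhba (-0.16) and the Id genes Id1, Id2 and Id3 (-0.12, -0.10 and -0.12) were on the lower side, with Ccn2 and Acta2 named above. The ligand gene Tgfb2 (0.18) and the inhibitory Smad6 (0.11) were on the higher side. Collagens had a median of 0.053, with 12 of 16 bright genes higher and 4 lower: Col8a1 read 4672 and 5186 (0.15), Col3a1 0.073, Col1a1 0.013 and Col11a1 -0.097. Fibronectin, Fn1, read 215054 and 216809 (0.012).

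Genes of mitochondrial translation and of respiratory complex I were mostly lower by small amounts. Of 55 bright genes of mitochondrial ribosomal proteins 45 were lower (81.8%) around a median of -0.067, with quartiles of -0.10 and -0.014, and the next brightest probes of 11 of them had a median of -0.048 with 9 lower. Mrps26 read 21324 and 18872 (-0.18), Mrps16 19473 and 17332 (-0.17), and Mrpl34 6528 and 5854 over 10 spots (-0.16, spot error 0.025). Respiratory complex I feeds electrons from NADH into the respiratory chain. Of the 36 genes in its list, all bright, 32 were lower (88.9%) around -0.057, with Ndufa12 at 37676 and 33251 (-0.18) and Ndufc2 at 30222 and 27196 (-0.15). The other complexes stood at -0.031 with 28 of 38 lower, next brightest probes of 15 of them at -0.048. Bands 4 and 5 of brightness, over all genes, had medians of -0.030 and -0.024. The part of brightness in these lists was not tested. Cytosolic ribosomal proteins, brighter still, stood at -0.018 with 51 of 76 lower, and 26 of 31 proteasome genes were lower around -0.032.

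Mitosis and kinetochore genes had a median of -0.059 with 23 of 26 bright genes lower (88.5%). The kinesin gene Kif20a read 2190 and 1867 (-0.23), the anaphase activator Cdc20 3390 and 3094 (-0.13), and Mki67, the proliferation marker Ki-67, 4679 and 4305 (-0.12) with -0.14 on its next probe. Cdk1, the kinase that drives entry into mitosis, went the other way at 1662 and 1889 (0.18), and Top2a read 563 on both arrays. Next brightest probes of 5 members were all lower. DNA replication genes, with 13 higher and 16 lower around -0.0035, did not share the shift.

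Genes of glucose handling gave values on both sides of 0. In the polyol and osmotic list 8 of 10 bright genes were lower (80%) around a median of -0.080. The taurine carrier gene Slc6a6 read 7187 on the normal-glucose array and 6471 on the high-glucose array (-0.15), the kinase gene Sgk1 37307 and 33680 (-0.15), and Akr1b3, aldose reductase, 30209 and 28017 (-0.11) with -0.13 on its next probe. Slc5a3 read -0.082 on its brighter probe beside the -0.19 of its 10 spots. The water channel gene Aqp1 stood at 0.061. Slc5a3, Slc6a6 and Akr1b3 are genes that NFAT5 is known to raise in a concentrated medium. Each was lower under the high-glucose label, as were 60.2% of all bright genes. The part of osmolarity in these values was not tested.

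Glycolysis and glucose uptake had a median of 0.038 with 16 of 22 bright genes higher (72.7%), and hypoxia targets 0.045 with 18 of 23 higher (78.3%). Only 5 and 7 of these genes had a next bright probe, with medians of -0.0045 and -0.00056 on it and of 0.016 on the brightest probe of the same genes in either list. Hk2, a hexokinase, read 0.094, Ldha, lactate dehydrogenase, 0.016, and the glucose carrier gene Slc2a1 -0.00030. In the list of Txnip, arrestin-domain genes and ChREBP 6 of 9 bright genes were higher around 0.058. Mlxipl, which encodes ChREBP, read 538 and 612 (0.19), Klf10 2161 and 2365 (0.13), and Arrdc4 3547 and 3823 over 10 spots (0.11) but 0.011 on its other probe. Txnip, which binds thioredoxin and restrains glucose uptake, read 8215 and 8084 (-0.023) and -0.10 on its next probe. Pentose phosphate genes had 7 of 8 lower but a median of -0.018, that of all bright genes, and hexosamine genes stood at -0.011.

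Further lists differed by small amounts. In the nitric oxide and cGMP list, the pathway of penile smooth muscle relaxation, 9 of 12 bright genes were lower around -0.060. Pde5a, the phosphodiesterase that breaks down cGMP, read 815 and 672 (-0.28), Gchfr 686 and 599.8 (-0.19) and Gch1, which starts synthesis of the cofactor tetrahydrobiopterin, -0.10. Nos3 was dimmer than the limit at 295 and 294. Immediate early genes had 13 of 17 lower around -0.057, with Nr4a1 and Jund at -0.13 each, and genes of the unfolded protein response 15 of 20 lower around -0.053, with the disulfide isomerase gene Pdia3 at 24411 and 20637 (-0.24) and the chaperone Hspa5 at -0.052. In the IGF list 12 of 15 were higher (80%) around 0.028. There, the binding protein genes Igfbp7 and Igfbp3 read 1156 and 1458 (0.34) and 3406 and 3917 (0.20) beside Igf1. The only bright epithelial marker, Perp, read -0.18, and Epcam and Cdh1 were not well above background. The 28 lists that met neither limit for naming, 0.05 in median or 80% in share, had medians from -0.042 to 0.045, the hypoxia list at the upper end.

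**Figure D5:**
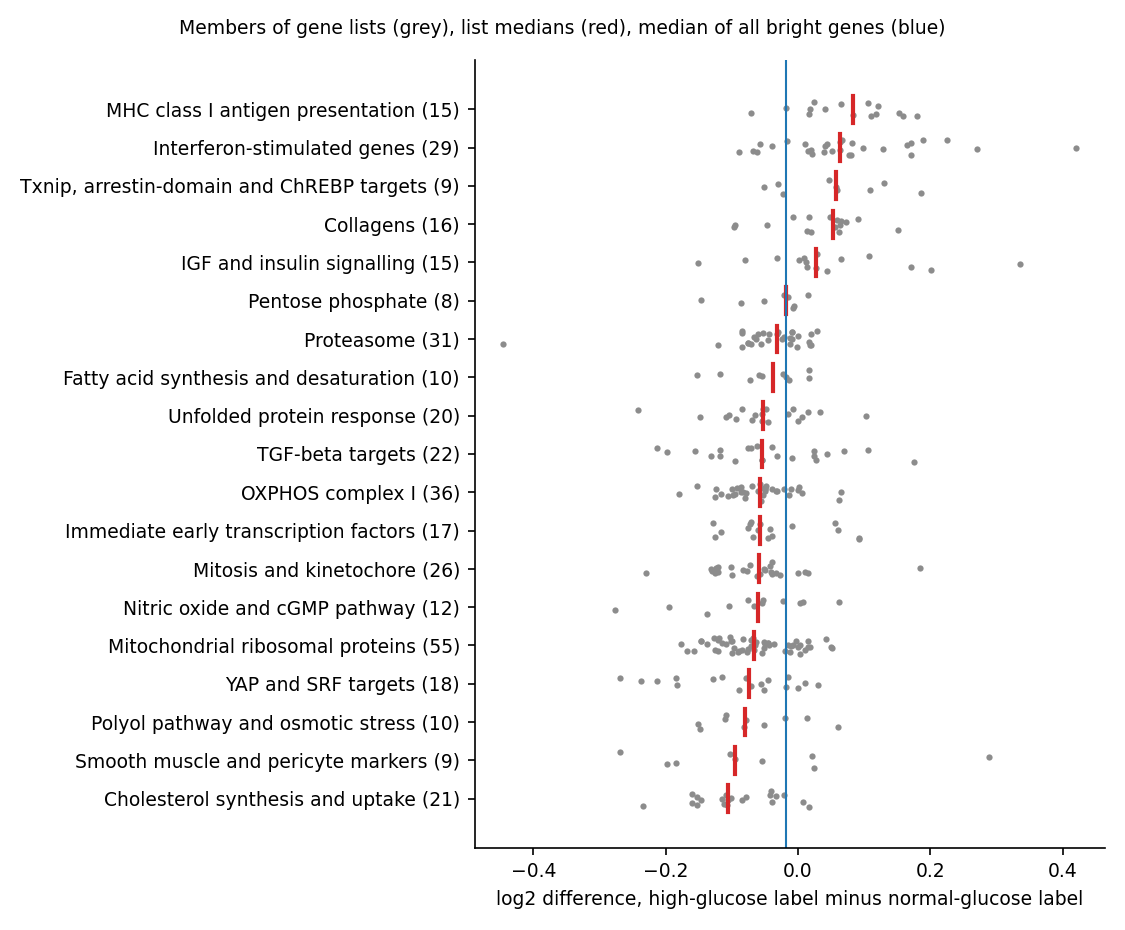
Log2 difference (high-glucose label minus normal-glucose label) of every bright member (grey points) of the 19 lists named by size or share with at least 6 bright members; the number in brackets is that of bright members. Red bars are list medians, from -0.11 for cholesterol genes to 0.082 for MHC class I genes, and the blue line is the median of all bright genes, -0.018.

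Genes often studied under high glucose in vascular cells differed little. Vcam1, a leukocyte adhesion molecule, read 65107 and 57653 (-0.18) but -0.035 on its next probe, and Hmox1, heme oxygenase 1, 3120 and 2725 (-0.20) but -0.045 on its next probe. The chemokine gene Ccl2 (-0.023), the adhesion gene Icam1 (-0.0030) and Sod2, mitochondrial superoxide dismutase (-0.010), were within the spread of spots. Of the angiogenic and neurotrophic genes Vegfa read 0.095 and -0.021 on its probes, Angpt1 0.076 and Bdnf -0.068. Angpt2 (479 and 458) and Ntf3 (433.5 and 409) were dimmer than the limit on both arrays.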

How the data were processed

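Single-colour (Cy3) arrays of 1 slide were read in Agilent Feature Extraction 11.0.1.1, per the file headers, which gave each spot a background-subtracted intensity on a linear scale. The value table deposited by the authors holds the same intensity for 100% of 39030 single-spot probes within 0.1%, so it is linear and not centred.

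Outlier spots (109 and 147) were left out. For each probe the mean log2 intensity of its spots was taken, less the 75th percentile of the non-control probes of that array. Names come from RefSeq (GRCm38.p6) through unversioned accessions, which named 26030 of 39398 probes (66.1%). The files were annotated on mm9, so gene coordinates are given for RefSeq promoters only. The members and the 48 lists (1153 entries, each with a RefSeq symbol) were chosen with earlier results of these data known.

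Genes were named by rule: up to 12 each way with agreeing probes and with a single bright probe, up to 8 each way among 10-spot probes, up to 4 per list with a median of 0.05 in size or a share of 80% over at least 6 genes, and a set that includes Ninj1, Txnip and Vegfa. Further list members, such as Isg15, Insig1 and Cdk1, were chosen as examples after their values were seen. Some members of the lists are not reported here by name. Steps were run on simulated arrays that shared 1 set of levels and differed by spot noise and planted changes alone. Such arrays check the computation and cannot show how it fares with differences between cultures or hybridisations. Alternatives used limma 3.58.1 in R 4.3.3 and Python 3.11.15. No p-value is given. The number of arrays, 1 per group, limits the precision.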

Additional observations from a re-analysis of the deposited data

How the results depend on the processing

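No paired analysis was possible because each group has 1 array and the labels number no replicates, and for the same reason no replicate could be left out. Alternatives that keep the labelled arrays numbered 15. Those that change only the step bear on counts alone, so list medians were followed over at most 12 and gene values over fewer. Of 1395 values of 132 named genes, 1381 moved by no more than 0.066, the spread of a difference of 2 spots. Turns of direction were counted only for genes with agreeing probes, a large single-probe difference or separated spots, and for genes at least 0.25 apart. None of these turned, and smaller values near 0 were not checked for sign. Of 271 list medians 263 kept their sign, the exceptions lying in the endothelial, fibroblast, TGF-beta and Txnip lists. Cholesterol genes ranged from -0.11 to -0.074, interferon-stimulated genes from 0.041 to 0.084 and MHC class I genes from 0.072 to 0.098. Others moved over 1.5 times: over members with at least 2 bright probes the unfolded protein response went from -0.053 to -0.00080, the proteasome from -0.032 to -0.0051 and mitosis from -0.059 to -0.12, and with normexp fatty acid synthesis went from -0.039 to -0.0098. Medians also ranged from -0.041 to -0.0065 for pentose phosphate, 0.013 to 0.038 for IGF, 0.034 to 0.069 for collagens, 0.016 to 0.055 for glycolysis, 0.016 to 0.063 for hypoxia, -0.031 to 0.031 for fibroblast and -0.047 to 0.026 for endothelial genes. The TGF-beta median was 0.12 over its 2 members with at least 2 bright probes, and that of the Txnip and ChREBP list was -0.023 with a signal limit of 2000.

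Counts moved more. The number at least 0.25 higher and lower was 37 and 13 with a signal limit of 2000, and 41 lower with a limit of 200. Past 0.15 it was 334 and 255, past 1.5-fold 0 and 2, and past 2-fold 0 and 0. Genes with agreeing probes numbered 15 higher with a limit of 200, 5 higher and 5 lower with 1000, 2 and 3 with 2000, and 4 lower with cyclic loess. Separated 10-spot probes on the lower side numbered 4 with a limit of 2000. Normexp was planned on the signals the files carry and was run on median spot signals, whose spots had a median SD of 0.19 within an array, and it left 0 and 0 separated probes. Removing a trend over the array (200 blocks, with block medians from -0.073 to 0.089) left these counts within 1.5 times. Separated 10-spot probes were not counted for the deposited value table and for means over probes, which hold no single spots.

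With the array whose file name carries the high-glucose word, which is the array labelled siRNA, the SD of differences was 0.59, with 2646 genes at least 0.25 higher and 2445 lower, 483 and 347 genes with agreeing probes and 65 and 70 separated probes. List medians were then -1.02 for Cholesterol synthesis and uptake, -1.18 for Smooth muscle and pericyte markers, -0.75 for Polyol pathway and osmotic stress, -0.76 for YAP and SRF targets, 0.20 for Mitochondrial ribosomal proteins, -0.15 for Nitric oxide and cGMP pathway, 1.45 for Mitosis and kinetochore, 0.0092 for OXPHOS complex I, -0.47 for TGF-beta targets, -0.32 for Fatty acid synthesis and desaturation, 0.16 for Proteasome, 0.15 for Pentose phosphate, -0.30 for IGF and insulin signalling, -0.78 for Collagens, 0.23 for the Txnip and ChREBP list, -0.94 for Interferon-stimulated genes, -0.76 for MHC class I antigen presentation, 0.20 for Glycolysis and glucose uptake, 0.34 for Hypoxia targets, -0.46 for Fibroblast markers, -0.38 for Endothelial markers. Among named genes the direction turned for Apoe -2.73, C1s2 -2.01, Ccdc93 0.45, Cd24a 2.69, Cfhr2 -0.24, Cmpk2 -0.39, Cmya5 -0.26, Derl3 0.055, Dnajc4 0.36, Enc1 0.45, Esm1 1.79, Gzme 0.64, H2-K1 -1.07, Ifit3b -2.22, Mcam -0.017, Ninj1 0.14, Notch1 -0.16, Pf4 0.042, Pnma2 -0.38, Poc1a 1.44, Psmb3 0.37, Ralgds -0.51, Socs2 0.089, St6galnac1 -0.76, Tbx22 -0.43, Tor3a -0.60, Trpm1 -0.30, Uqcrc2 0.18, Vps18 0.055, Wdr3 0.35, Wdr45b -0.31. Turns were again counted only for the kinds of genes given above. The cause of these differences was not tested.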
